A study of Mus musculus with 4 samples.

Results

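Chromatin-modifying enzyme families were followed through 4 RNA-seq libraries of mouse prelimbic cortex, in the comparison of susceptible with control mice and in that of AAV-CDYL with AAV-GFP. The members are protein-coding genes taken by symbol alone: the histone deacetylases Hdac3 to Hdac11, the sirtuins other than Sirt2, the lysine acetyltransferases, methyltransferases and demethylases named Kat, Kmt, Setd, Suv, Ezh1 and Kdm2 to Kdm8, the arginine methyltransferases, the Dnmt and Tet genes, and the Cbx, Chd and Smarc genes. The GENCODE M21 annotation holds 105 such genes. The stress table has 29 of them among its 12318 genes, and the AAV table has 38 among its 15396; 15 of the genes are found in both tables and 53 in neither. The label is wider than enzymes, since the Cbx proteins bind modified histones and several Smarc proteins are structural subunits.

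The susceptible library came from C57BL/6 mice of 8 weeks with a stress-susceptible phenotype after chronic social defeat stress, and the control library from C57BL/6 mice of the same age with the control phenotype, which carry the same stress tag in the labels. The AAV-CDYL and AAV-GFP libraries came from C57BL/6 mice of 8 weeks in which a virus expressed CDYL, a chromodomain corepressor, or green fluorescent protein. Neither the promoter and serotype of the virus nor any pooling of mice is stated in the labels. Each group had 1 library, so the differences describe these libraries and have no replicate check, and no test was possible.

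Values are FPKM, a fragment count divided by transcript length in kilobases and by library size. Neither table lists a gene above 0 in both libraries that differs by less than 1.25-fold, so a gene outside a table has no value here and is not thereby shown to be alike. The stress table lists 27.6% of the 105 genes and 35% of all annotated protein-coding genes, and the AAV table lists 36.2% and 46.5%. The size rule called a gene higher or lower if its FPKM + 1 values were 1.5-fold or more apart, which is 0.585 in log2(FPKM + 1). At least 1 of the libraries also had to reach 1 FPKM (the floor). The floor kept 26 members of the stress pair and 34 of the AAV pair, and each of them was also at 1 or more in the control or AAV-GFP library. The effective depth was 23100000 fragments in susceptible and 14200000 in control, and 23900000 with AAV-CDYL and 22600000 with AAV-GFP. Control was thus the shallowest library, where a rare transcript more readily reads 0. Cdyl stood at 1052 FPKM in the AAV-CDYL library against 2.68 in the AAV-GFP library, in the direction of the label. Cuffdiff placed 12 of the 29 members and 13 of the 38 at a locus that also held some other listed gene, where fragments may be split between genes.

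As background, DNA in the nucleus is wrapped around histones, and these families set how tightly. Acetyltransferases and deacetylases add and remove acetyl groups on histone tails, methyltransferases and demethylases do the same for methyl groups, Dnmt and Tet enzymes write and oxidise DNA methylation, chromobox proteins read histone methylation, and Chd and Smarc proteins belong to complexes that move nucleosomes with the energy of ATP. In neurons the class IIa deacetylases (Hdac4, Hdac5, Hdac7 and Hdac9) shuttle between cytoplasm and nucleus with calcium signals, and CDYL itself binds methylated histone H3 and brings in repressive enzymes.

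The rule used no sequence, so the promoters of the members are described here beside those of all listed genes. A RefSeq window (build GRCm38.p6) was found for 45 of the 52 members listed in either table, and its 250 bases before the start site nearest to the deposited 5' end were read. Over these the median GC content was 61.2% and the median ratio of observed to expected CG pairs was 0.81, against 58% and 0.59 over 9396 listed protein-coding genes. The GC box GGGCGG, searched on both strands, lay in 30 of the 45 windows (66.7%), against 49.7% of the 9396, and the other 15 lacked it. The cyclic AMP response element TGACGTCA, which is its own reverse complement, lay in 1 (2.22%), the window of Suv39h2, against 2%. These shares are a description, and no motif match is shown to be a binding site. For some members the start site used lay far from the deposited 5' end, such as Sirt1 (42669 bases), Cbx7 (38473) and Setd5 (27570). Windows of such genes may not be the promoters in use. The windows below belong to Hdac4 and Hdac9, deacetylases that stood lower with CDYL, to Kdm7a, which had the largest negative difference after stress, and to Kat2b, which stood higher with CDYL. Every CG pair is in capitals, and each sequence reads 5' to 3' on the strand of its gene.
Hdac4: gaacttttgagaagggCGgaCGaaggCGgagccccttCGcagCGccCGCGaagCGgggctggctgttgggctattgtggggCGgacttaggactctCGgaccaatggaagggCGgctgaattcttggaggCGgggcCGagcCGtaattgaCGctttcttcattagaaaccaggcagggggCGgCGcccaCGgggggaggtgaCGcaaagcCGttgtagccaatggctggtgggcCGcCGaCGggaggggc
Hdac9: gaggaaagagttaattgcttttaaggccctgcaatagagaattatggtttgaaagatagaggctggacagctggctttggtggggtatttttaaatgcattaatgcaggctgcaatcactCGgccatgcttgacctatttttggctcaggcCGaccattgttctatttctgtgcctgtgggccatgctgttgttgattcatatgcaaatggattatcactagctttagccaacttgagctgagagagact
Kdm7a: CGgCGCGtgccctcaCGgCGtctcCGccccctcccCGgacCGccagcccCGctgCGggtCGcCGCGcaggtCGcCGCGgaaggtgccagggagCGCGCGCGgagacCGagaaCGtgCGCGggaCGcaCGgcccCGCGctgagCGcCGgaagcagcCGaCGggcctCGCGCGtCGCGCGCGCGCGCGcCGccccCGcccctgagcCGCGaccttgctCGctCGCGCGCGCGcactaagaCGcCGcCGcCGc
Kat2b: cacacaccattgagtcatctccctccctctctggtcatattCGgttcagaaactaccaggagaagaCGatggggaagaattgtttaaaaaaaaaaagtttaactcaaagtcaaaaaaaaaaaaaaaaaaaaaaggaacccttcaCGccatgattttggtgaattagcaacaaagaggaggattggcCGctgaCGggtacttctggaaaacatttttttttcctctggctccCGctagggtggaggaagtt
The Hdac4 window (chr1:92180342-92180591, minus strand) held 23 CG pairs and that of Hdac9 (chr12:34528890-34529139, minus strand) held 2. The deposited position of Hdac9 differs from that in GENCODE M21, so its window is approximate. Any part of CG content in the differences was not tested. The Kdm7a window (chr6:39206774-39207023, minus strand) held 56, and the Kat2b window (chr17:53566721-53566970, plus strand) held 6.

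In the susceptible library few chromatin genes stood apart from control: of 26 members above the floor, 2 were higher (Tet2 and Kdm5d) and 2 lower (Kdm7a and Hdac5). That is 7.69% in each direction, where 18.9% of all 5334 genes above the floor were higher and 10.8% lower. All 26 members reached 1 FPKM in control as well; over the 4649 genes that did so, a background added after the values were known, the shares were 13.5% and 12.4%. Counting differences of any size, 12 members were above control and 14 below, beside 47.7% of all genes below. These counts hang on how the libraries are scaled: 0 members were higher and 11 lower when differences were centred on the median of all listed genes above the floor, and 8 higher and 0 lower with upper-quartile scaling. Over all genes 9.97% were then higher and 36% lower with centring, and 42.8% higher and 3.59% lower with upper-quartile scaling. By any amount 16 were below with centring and 14 with upper-quartile scaling, beside 50% (by definition) and 44.1% of all genes. Since differences near 0 are not listed, these numbers say little of how stable a direction is. The median difference over members was -0.31 on the log2(FPKM + 1) scale, against 0.24 over all genes above the floor and -0.29 over the 4649. Because the table omits differences near 0, such a median lies on 1 side of a gap and is a description only.

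**Figure D1:**
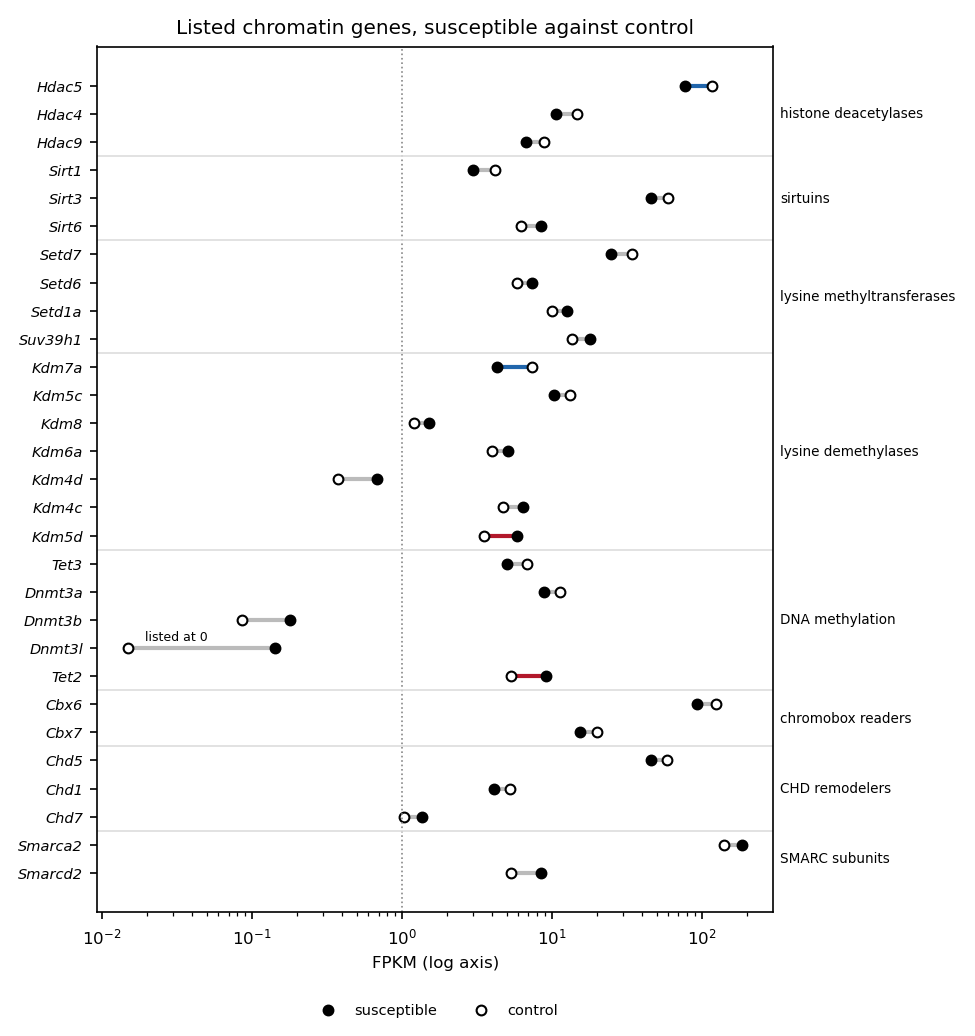
FPKM (log axis) of the 29 chromatin genes in the stress table, grouped by family, with filled points for the susceptible and open points for the control library; red lines join genes counted as higher, blue lines those counted as lower, grey lines the rest, and the dotted line marks 1 FPKM. The lines are short for most genes, Tet2 and Kdm5d are the red ones and Hdac5 and Kdm7a the blue ones, and Dnmt3l, listed at 0 in control, is drawn at the left edge.

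The 3 listed histone deacetylases, all of class IIa, were below control. Hdac5 (chromosome 11, 102194432 to 102230166), a class IIa deacetylase known for responses to stress and reward in the brain, stood at 77.1 FPKM in the susceptible library and 117 in control. This is 0.658 times the control level, with an approximate 95% interval from fragment counting alone of 0.638 to 0.678, and just inside the size rule. Hdac4 stood at 10.7 in susceptible and 14.8 in control, and Hdac9 at 6.77 in susceptible and 8.92 in control, both short of it. Among NAD-dependent sirtuins, Sirt1 stood at 2.98 in susceptible against 4.21 in control and the mitochondrial Sirt3 at 46.0 in susceptible against 59.9 in control, while Sirt6, a nuclear sirtuin with roles in DNA repair, stood at 8.52 in susceptible against 6.23 in control.

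DNA methylation genes went in both directions. Tet2 (chromosome 3, 133463679 to 133545139), which oxidises methylated cytosine, stood furthest above control on the log2(FPKM + 1) scale, with a difference of 0.69: 9.20 FPKM in susceptible and 5.32 in control, 1.73 times as high (counting interval 1.59 to 1.89). Its paralog Tet3 lay on the other side, at 5.01 in susceptible and 6.87 in control, and the de novo methyltransferase Dnmt3a at 8.92 in susceptible and 11.4 in control. Dnmt3b (0.180 in susceptible and 0.0857 in control) and the cofactor Dnmt3l (0.142 in susceptible, listed at 0 in control) were below the floor.

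Lysine demethylases gave a gene in each direction. Kdm7a (chromosome 6, 39136623 to 39206789), which removes methyl groups from lysines 9 and 27 of histone H3, stood at 4.29 FPKM in susceptible and 7.42 in control, 0.579 times the control level (counting interval 0.529 to 0.633), a difference of -0.67 that is close to that of Tet2 in size and larger with centring (-0.91, against 0.45 for Tet2). Cuffdiff placed it in a locus with another listed gene. Kdm5d (chromosome Y, 897788 to 956786), the Y-linked demethylase of histone H3 lysine 4, stood at 5.86 in susceptible and 3.54 in control, 1.65 times as high (1.47 to 1.86). Its X-linked partner Kdm5c stood at 10.3 in susceptible and 13.2 in control, the opposite direction. Uty, another Y-linked gene of this enzyme class but no member, stood at 3.27 in susceptible and 4.39 in control, so these Y-linked genes lay on opposite sides. The X-linked H3 lysine 27 demethylase gene Kdm6a (5.12 in susceptible, 4.02 in control) and the H3 lysine 9 demethylase gene Kdm4c (6.43 in susceptible, 4.76 in control) were above control without passing the rule. Kdm8 (1.51 in susceptible, 1.21 in control) was above too, but not when differences were centred on that median.

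Lysine methyltransferases passed the rule in neither direction. Setd7, which monomethylates histone H3 lysine 4 and other proteins, stood at 24.8 in susceptible and 34.2 in control. Setd6, known for methylating a subunit of NF-kappaB, stood at 7.40 in susceptible and 5.90 in control. Suv39h1, which trimethylates histone H3 lysine 9 in heterochromatin, stood at 18 in susceptible and 13.7 in control. Setd1a, a histone H3 lysine 4 methyltransferase, stood at 12.7 in susceptible and 10.1 in control, but 52.3% of its exonic bases also belong to other annotated genes, whose fragments a kit without strand marking cannot separate. Chromobox readers of Polycomb complexes were below control, with Cbx6 at 93.5 in susceptible and 124 in control and Cbx7 at 15.5 in susceptible and 20.1 in control.

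Among remodelers, Chd5, a neuronal subunit of repressive NuRD complexes, stood at 45.6 in susceptible and 58.6 in control, and Chd1 at 4.10 in susceptible and 5.27 in control. Chd7 stood at 1.37 in susceptible and 1.03 in control, a difference of 0.22 that became -0.02 with median centring. Both listed Smarc genes were above control. The SWI/SNF ATPase gene Smarca2 stood at 187 in susceptible and 139.8 in control, and Smarcd2 at 8.51 in susceptible and 5.39 in control. Of listed SWI/SNF genes that are not members, Arid2, Pbrm1, Dpf1 and Dpf2 lay below control and Actl6a above. Arid2 stood at 5.36 in susceptible and 7.71 in control, and Actl6a at 6.57 in susceptible and 4.16 in control. Smarcd2 was the member nearest to the size rule from outside, with a difference of 0.57, and Kdm5d (0.59) and Hdac5 (-0.60) were the nearest inside, where the rule lies at 0.585. In the authors' deposited table Kdm7a is the 1 member with a p under 0.05 (p = 0.01235, q = 0.895), beside 4.34% of all listed genes, and 0 members have q under 0.05, beside 0.333%.

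Cell type markers differed in the same libraries. Of 14 neuron markers 7 were listed and all of these lay below control, 2 by the size rule, with a sum of 1572 FPKM in susceptible and 2177 in control. Of 15 oligodendrocyte markers 13 were listed, all above control and 10 by the rule, with sums of 1638 in susceptible and 649 in control. Of 10 astrocyte markers 6 were listed, 3 of them higher (666 in susceptible, 402 in control), while of 12 microglia and macrophage markers 8 were listed, 1 higher and 2 lower (147 in susceptible, 152 in control). Endothelial markers were higher for 4 of the 7 listed of 8 (219 in susceptible, 77.6 in control). Of 13 leukocyte markers 4 were listed, 1 of them higher (2.39 in susceptible, 0.753 in control), and Ms4a1 was at 0 in control. Of 15 proliferation markers 12 were listed, 0 of them past the rule (6.00 in susceptible, 4.26 in control), and Cdk1 and Bub1 were at 0 in control. Their part in the differences of the chromatin genes was not tested, and in bulk tissue fewer cells of a type and less RNA per cell cannot be told apart.

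With CDYL overexpressed, most listed chromatin genes lay below AAV-GFP: 29 of the 34 above the floor, against 46.6% of all 8047 genes above it. By the size rule 6 were lower (Hdac4, Prmt8, Hdac9, Setd7, Chd5 and Suv39h2) and 3 higher (Chd7, Kat2b and Suv420h2). The 6 lower ones are 17.6% of the 34, beside 14.4% of all genes, and the 3 higher ones 8.82%, beside 31.3% of all genes. Centring on the median gave 29 lower and 1 higher members, beside 44.4% of all genes lower and 20.3% higher. The number below by any amount was 29 with centring and with upper-quartile scaling, beside 50% (by definition) and 46.5% of all genes. These settings shift the pair by only 0.30 and 0.08, and differences near 0 are not listed. The unchanged number therefore says little of how stable a direction is. All 34 members reached 1 FPKM in the AAV-GFP library as well; of the 6679 genes that did so, a background likewise added later, 17.4% were lower, 21.2% higher and 56.2% below by any amount, where 85.3% of the members were below. The median difference over the members was -0.40, against 0.30 over all genes above the floor and -0.32 over the 6679. No member differed by over 2-fold on the log2(FPKM + 1) scale.

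**Figure D2:**
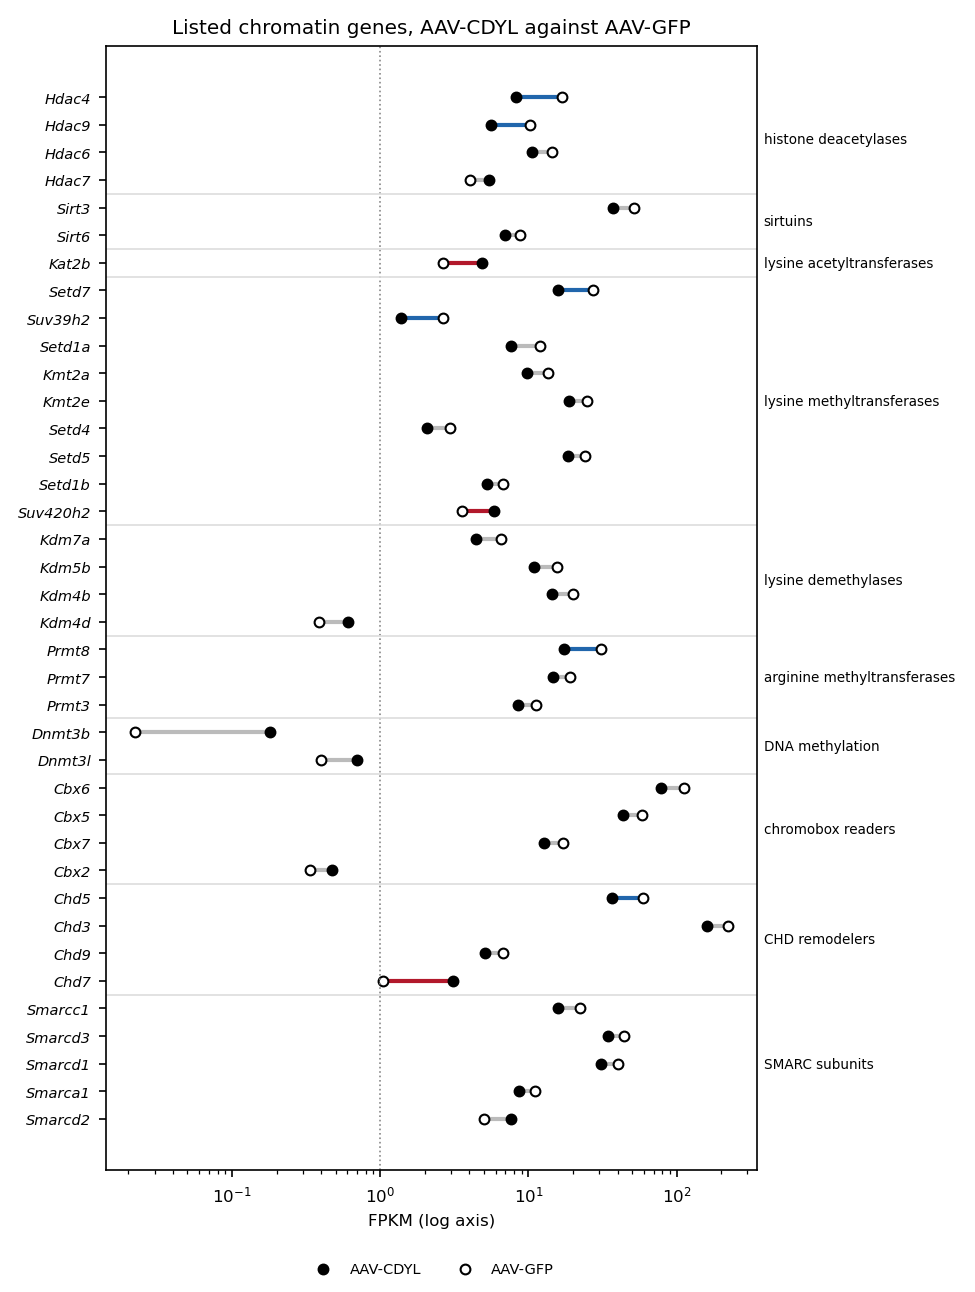
FPKM (log axis) of the 38 chromatin genes in the AAV table, grouped by family, with filled points for the AAV-CDYL and open points for the AAV-GFP library; red lines join genes counted as higher, blue lines those counted as lower, grey lines the rest, and the dotted line marks 1 FPKM. The AAV-CDYL point lies left of the AAV-GFP point in 29 of the 34 genes above the floor; Chd7, at 3.08 FPKM with AAV-CDYL against 1.05 with AAV-GFP, is the widest red line.

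Class IIa deacetylases held the largest negative difference. Hdac4 (chromosome 1, 91928779 to 92180341), a neuronal repressor of MEF2 targets, stood at 8.22 FPKM with AAV-CDYL and 16.8 with AAV-GFP, 0.491 times the AAV-GFP level (counting interval 0.461 to 0.521). Other annotated genes cover 22.4% of its exonic bases. Hdac9 (chromosome 12, 34371503 to 34528889) stood at 5.57 with AAV-CDYL and 10.3 with AAV-GFP, 0.541 times (0.501 to 0.584). The cytoplasmic tubulin deacetylase gene Hdac6 stood at 10.6 with AAV-CDYL and 14.4 with AAV-GFP. Hdac7, the remaining class IIa gene in this table and one known from endothelial and immune cells, lay the other way at 5.44 with AAV-CDYL and 4.05 with AAV-GFP. Both listed sirtuin members were below AAV-GFP. Sirt3 stood at 37.1 with AAV-CDYL against 51.5 with AAV-GFP, and Sirt6 at 6.92 with AAV-CDYL against 8.78 with AAV-GFP. Sirt2, which is not a member, was higher, at 89.4 with AAV-CDYL against 51.1 with AAV-GFP.

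The only listed gene of the Kat acetyltransferases was higher. Kat2b (chromosome 17, 53566861 to 53672720), the coactivator PCAF, stood at 4.89 FPKM with AAV-CDYL and 2.66 with AAV-GFP, 1.84 times as high (1.59 to 2.13). Of the 7 genes of this family in the annotation, the other 6 had no value. Crebbp, an acetyltransferase gene that is not a member, lay the other way at 6.85 with AAV-CDYL and 8.82 with AAV-GFP.

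Of the 9 listed members among the lysine methyltransferases 8 were below AAV-GFP, beside 46.6% of all genes above the floor. Among such enzymes that are not members and were above the floor, Ezh2 and Dot1l lay above AAV-GFP. Ash1l, Nsd1, Whsc1 and Whsc1l1 lay below it. Setd7 stood at 15.8 with AAV-CDYL and 27.2 with AAV-GFP, 0.581 times (0.554 to 0.609). Suv39h2, the paralog of Suv39h1 for histone H3 lysine 9, stood at 1.38 with AAV-CDYL and 2.66 with AAV-GFP, 0.518 times, and its interval of 0.421 to 0.640 is wide because only about 143 fragments with AAV-CDYL and 260 with AAV-GFP stand behind these values. Setd1a was the nearest gene outside the rule, at 7.64 with AAV-CDYL and 11.9 with AAV-GFP, a difference of -0.58. The trithorax gene Kmt2a stood at 9.80 with AAV-CDYL against 13.6 with AAV-GFP, Kmt2e at 18.8 with AAV-CDYL against 24.9 with AAV-GFP, and Setd5 at 18.5 with AAV-CDYL against 24.0 with AAV-GFP. The remaining members, Setd1b and Setd4, were below as well (5.25 with AAV-CDYL against 6.77 with AAV-GFP, and 2.08 with AAV-CDYL against 2.98 with AAV-GFP). The exception was Suv420h2 (chromosome 7, 4740115 to 4747514; Kmt5c in GENCODE M21), which trimethylates histone H4 in heterochromatin: 5.89 with AAV-CDYL and 3.54 with AAV-GFP, 1.66 times as high (1.41 to 1.97).

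Members among the demethylases and arginine methyltransferases above the floor all lay below AAV-GFP. The demethylase gene Kdm1b, which is not a member, lay above it at 2.86 with AAV-CDYL and 2.06 with AAV-GFP. Kdm7a stood at 4.44 with AAV-CDYL and 6.58 with AAV-GFP, the H3 lysine 4 demethylase gene Kdm5b at 10.9 with AAV-CDYL and 15.5 with AAV-GFP, and the H3 lysine 9 demethylase gene Kdm4b at 14.5 with AAV-CDYL and 19.9 with AAV-GFP. Kdm4d, under the floor, stood at 0.606 with AAV-CDYL and 0.389 with AAV-GFP. Prmt8 (chromosome 6, 127689011 to 127769472), a membrane-bound arginine methyltransferase found mainly in brain, stood at 17.4 with AAV-CDYL and 30.9 with AAV-GFP, 0.564 times (0.523 to 0.607), in a locus with another listed gene. Prmt7 (14.6 with AAV-CDYL, 19.0 with AAV-GFP) and Prmt3 (8.57 with AAV-CDYL, 11.2 with AAV-GFP) were short of the rule.

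DNA methylation genes with a value were at the bottom of the range, Dnmt3l at 0.700 with AAV-CDYL and 0.399 with AAV-GFP and Dnmt3b at 0.180 with AAV-CDYL and 0.0222 with AAV-GFP; no Tet gene was listed. The 3 chromobox readers above the floor lay below AAV-GFP: Cbx6 at 78.5 with AAV-CDYL against 112 with AAV-GFP, Cbx5, the heterochromatin protein HP1 alpha, at 43.5 with AAV-CDYL against 58.1 with AAV-GFP, and Cbx7 at 12.8 with AAV-CDYL against 17.1 with AAV-GFP. Cbx2, under the floor, lay above (0.472 with AAV-CDYL against 0.336 with AAV-GFP).

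Chd remodelers held the largest positive difference. Chd7 (chromosome 4, 8690406 to 8867659), mutated in CHARGE syndrome in humans and known for roles in neural stem cells and the oligodendrocyte lineage, stood at 3.08 FPKM with AAV-CDYL and 1.05 with AAV-GFP. This is 2.94 times as high as a ratio of FPKM (2.54 to 3.41) and 1.00 on the log2(FPKM + 1) scale, which understates differences of low genes. The neuronal Chd5 stood at 36.9 with AAV-CDYL and 59.6 with AAV-GFP, 0.619 times (0.603 to 0.637), and Chd3, the most abundant listed member in this pair, at 160.1 with AAV-CDYL and 221 with AAV-GFP. Chd9 stood at 5.08 with AAV-CDYL and 6.70 with AAV-GFP.

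The 3 paralogs of the SWI/SNF subunit BAF60 did not share a direction. Smarcd1 stood at 31.1 with AAV-CDYL and 40.1 with AAV-GFP, and Smarcd3, a form known from heart and brain, at 34.2 with AAV-CDYL and 44.5 with AAV-GFP, with 48.2% of its exonic bases also in other genes. Smarcd2, a form known for its role in blood cell development, stood at 7.60 with AAV-CDYL and 5.02 with AAV-GFP. None of them passed the size rule. The core subunit gene Smarcc1 (15.9 with AAV-CDYL, 22.3 with AAV-GFP) and the ISWI ATPase gene Smarca1 (8.61 with AAV-CDYL, 11.0 with AAV-GFP) were also below. In the authors' deposited table Chd7 is the 1 member with a p under 0.05 (p = 0.04605, q = 0.973), beside 5.48% of all listed genes, and 0 members have q under 0.05, beside 0.955%.

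Cell type markers differed in these libraries too. All 12 listed of 14 neuron markers were below AAV-GFP, 6 by the size rule, with sums of 3431 FPKM with AAV-CDYL and 5195 with AAV-GFP. All 15 oligodendrocyte markers were higher (sums of 2675 with AAV-CDYL and 709 with AAV-GFP), as were 11 of 12 microglia and macrophage markers (1459 with AAV-CDYL, 215 with AAV-GFP). So were 6 of 7 listed astrocyte markers of 10, with Gjb6 lower (708 with AAV-CDYL, 211 with AAV-GFP), and 3 of 5 listed endothelial markers of 8 (156 with AAV-CDYL, 71.1 with AAV-GFP). Of 13 leukocyte markers 11 were higher (51.4 with AAV-CDYL, 2.60 with AAV-GFP), and Cd3d, Cd3g, Cd8a, Cd79a, Gzmb and Nkg7 were among those listed at 0 with AAV-GFP. Of 15 proliferation markers 14 were listed and 9 were higher (26.9 with AAV-CDYL, 6.23 with AAV-GFP). The part of these markers in the differences of Hdac4, Prmt8, Chd5, Chd7 and the other members was not tested.

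Chromatin genes have long transcripts, and length moved with direction in both pairs. The median of the longest coding transcript was 6.19 kb over the 26 members of the stress pair and 5.29 kb over the 34 of the AAV pair, against 3.12 and 3.33 kb over all protein-coding genes above the floor. With these split by length into 4 groups of equal size, the share below control in the stress pair was 36.6%, 41.7%, 52.7% and 65.2% from the shortest to the longest group. In the AAV pair the corresponding shares below AAV-GFP were 24.0%, 41.4%, 56.7% and 71.3%. In the longest group 64.7% of 17 members were below control, against 65.2% of 1079 genes that are no members. In that group of the AAV pair 94.1% of 17 members were below AAV-GFP, against 71.1% of 1702 others, and 23.5% of the members were lower by the size rule, against 25.1% of the others. The part of transcript length in the members' differences was not tested beyond these shares.

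**Figure D3:**
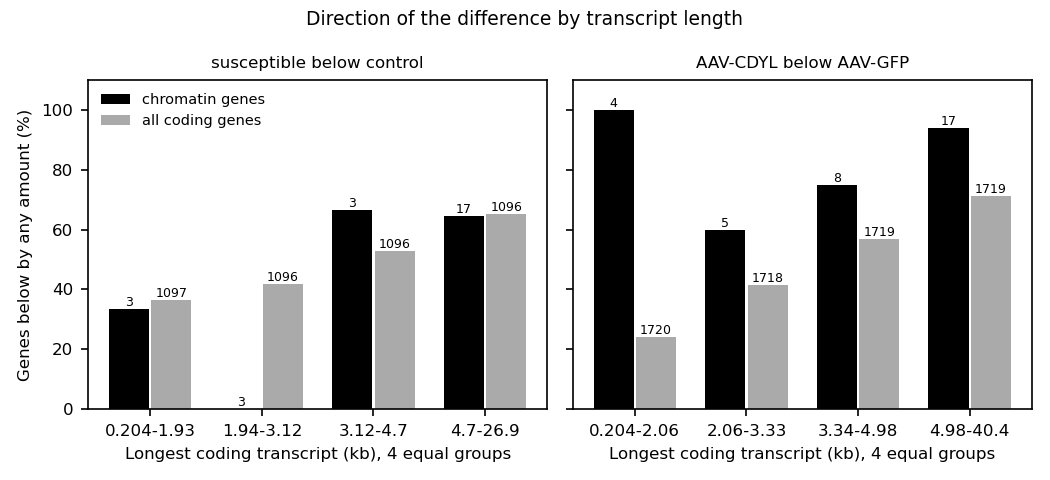
Share of genes (percent) below control in the susceptible library (left) and below AAV-GFP in the AAV-CDYL library (right), for 4 equal groups by longest coding transcript in kb; black bars are chromatin genes, grey bars all protein-coding genes at 1 FPKM or more in either library, and the number of genes stands above each bar. The grey bars climb with length in both pairs, to 65.2% and 71.3%, and the shorter groups hold at most 8 chromatin genes each.

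Set side by side, the pairs, which share no library, gave most shared members the same direction. Of the 15 members with 2 sets of values, 12 were above the floor in both: 8 lay below in both (Hdac4, Hdac9, Sirt3, Setd7, Kdm7a, Cbx6, Cbx7 and Chd5), 2 above in both (Smarcd2, and Chd7 except after stress with median centring), and 2 above control but below AAV-GFP (Setd1a and Sirt6). That is 83.3% with the same sign, near the 82.3% of the 3242 genes above the floor in both tables. By the size rule 0 members were called in both pairs, where 19.5% of the 3242 genes were called in the same direction in both. The 4 called after stress and the 9 called with CDYL thus had 0% of each list in common, but of the 4 Kdm7a alone has a value in the AAV table, and of the 9 only Chd5, Chd7, Hdac4, Hdac9 and Setd7 have one in the stress table. Kdm7a had a difference of -0.67 after stress and -0.48 with CDYL, and Hdac4 had -0.43 after stress and -0.95 with CDYL. In the separately normalized tables Chd5 stood at 59.6 FPKM with AAV-GFP and 58.6 in control, and Chd7 at 1.05 with AAV-GFP and 1.03 in control.

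**Figure D4:**
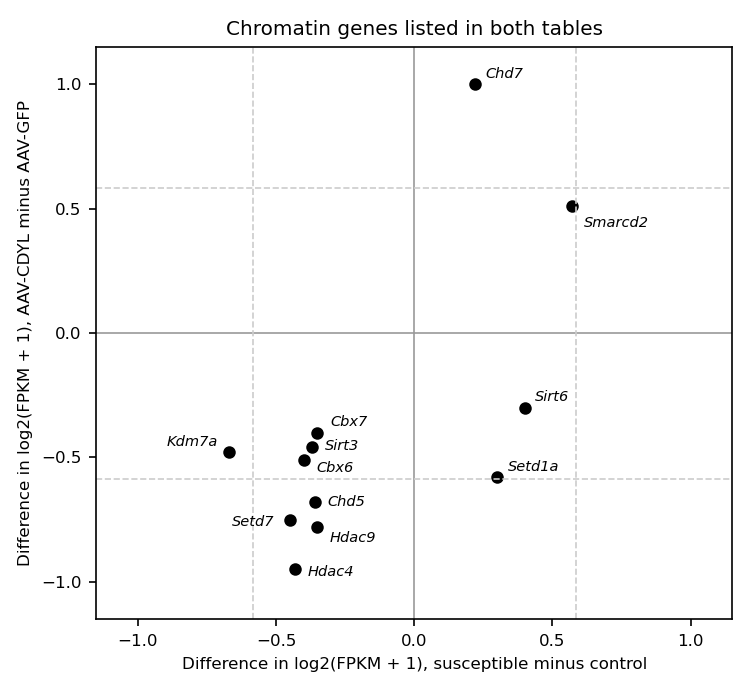
Difference in log2(FPKM + 1) of the 12 chromatin genes above the floor in both tables, susceptible minus control on the horizontal axis and AAV-CDYL minus AAV-GFP on the vertical axis; dashed lines mark the 1.5-fold rule. The 8 genes at lower left are below in both pairs, and no gene lies outside the dashed lines on both axes.

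A list of other chromatin genes held 104 symbols, in which Nsd2 and Whsc1 name the same gene, as do Nsd3 and Whsc1l1. Of its genes 24 had a value after stress and 22 were above the floor. Over all genes above the floor, 18.9% were higher, 10.8% lower and 47.7% below control by any amount. Of the 22, 3 were higher, 0 lower, 15 above control and 7 below. The higher ones were the Polycomb ubiquitin ligase gene Rnf2 (20.6 FPKM in susceptible and 12.6 in control), its complex partner Pcgf1 (18.7 in susceptible and 9.87 in control) and the corepressor gene Rcor3 (9.15 in susceptible and 5.37 in control). With CDYL, 41 had a value and 39 were above the floor. Over all genes above it, 31.3% were higher, 14.4% lower and 46.6% below AAV-GFP by any amount. Of the 39, 2 were higher, 2 lower, 12 above AAV-GFP and 27 below. The higher ones were Sirt2, a deacetylase abundant in oligodendrocytes (89.4 with AAV-CDYL and 51.1 with AAV-GFP), and Hells, a helicase of dividing cells (1.66 with AAV-CDYL and 0.424 with AAV-GFP). The lower ones were Ing2, a reader of H3 lysine 4 methylation (8.85 with AAV-CDYL and 15.4 with AAV-GFP), and the H3 lysine 36 methyltransferase gene Ash1l (13.9 with AAV-CDYL and 21.9 with AAV-GFP).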

How the data were processed

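RNA of 4 libraries, 1 per group, was sequenced from prelimbic cortex. Per the labels' protocols, Trizol RNA went into NEBNext Ultra libraries; this kit gives no strand. For each pair the authors deposited a table with FPKM for both libraries and, per gene, a p-value and a q-value. Cuffdiff and mm10 are named in the submitters' processing notes; the aligner, the gene annotation and tool versions were not given in the sources used here. The header of the susceptible column is misspelled and was matched to the sample's title. No per-sample column was unmapped.

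Members, lists, thresholds and alternatives were chosen with earlier results of these data known. Differences were taken on the log2(FPKM + 1) scale over whole tables, with the floor of 1 FPKM and the 1.5-fold rule. Named genes were the 8 largest differences per direction past the rule, the 2 largest per family, members past the rule in both pairs, and Cdyl; others are named to complete a family. With 1 library per group no p-value was computed. Low FPKM values of single-transcript genes of 3 to 20 kb fall on steps of 1 fragment, which gave the effective depth; under 4.5 steps, 93.1% or more were within 0.15 of a step. Fragment numbers behind a value use the longest coding transcript in GENCODE M21, and the 95% Clopper-Pearson intervals of ratios cover counting error only. The deposited gene positions differ from M21 for some genes, such as Hdac9, so both are approximate. Exonic overlap came from the same annotation, and promoters from RefSeq windows. The size rule was tried on simulated libraries of equal depth, with 2-fold changes and counting error only, and the depth estimate on simulated steps. Neither trial covers variation between libraries or the 1.25-fold limit of the deposited values. The work used Python 3.11.15 (scipy 1.17.1, numpy 2.4.6, pandas 2.3.3) and matplotlib 3.10.9.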

Additional observations from a re-analysis of the deposited data

How the results depend on the processing

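No paired analysis was possible because each group had 1 library, and no replicate could be left out. In the stress pair the counts of 2 higher and 2 lower members became 0 and 0 with a 2-fold rule, 0 and 11 when differences were centred on the median of listed genes (a shift of 0.24), and 8 and 0 with upper-quartile scaling, so neither direction holds under every scaling; leaving out members in shared loci left 1 lower. The members' median of -0.31 became 0.12 with no floor and -0.56 with centring. In the AAV pair the 3 higher and 6 lower members became 0 and 0 with a 2-fold rule and 1 and 29 with centring (a shift of 0.30), and 1 higher was left with a floor of 5 FPKM; the median of -0.40 became -0.70 with centring and -0.32 with upper-quartile scaling. Members called in the same direction in both pairs were 0, but 1 (Smarcd2) with a pseudocount of 0.1 and 8 with centring, of 12 each; of all 3242 genes above the floor in both, the shares were 19.5%, 29.5% and 34.9%. Over all genes the 2-fold rule left 6.86% higher and 2.55% lower in the stress pair and 17.7% and 1.8% in the AAV pair; with centring 20.3% were higher and 44.4% lower in the AAV pair, and the stress pair's split moved as given above. Upper-quartile scaling shifted the stress pair by 0.33 and left the members' median at -0.02. Of all members above the floor, Kdm8 and Chd7 changed sign, both with centring in the stress pair (to -0.06 and -0.02); since differences near 0 are not listed, this says little of how stable a direction is. Of the members named under the rule, Hdac5 and Kdm7a fell short of the rule after stress with upper-quartile scaling, Tet2 and Kdm5d with centring, and with CDYL Kat2b and Suv420h2 with centring and Suv39h2 with upper-quartile scaling. The cause of these shifts was not tested. Depth limits the members under 1 FPKM most, since about 2 fragments stood behind Dnmt3b with AAV-GFP.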
